A study of Mus musculus with 6 samples.

Results

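The integrated stress response and the unfolded protein response were followed through 38 genes in mouse bone marrow-derived macrophages. The genes were taken by symbol from a gene table with 52550 entries. All 38 were found there, 20 in an ATF4 arm (from Atf4 to Ppp1r15a) and 18 in an ER chaperone arm (from Hspa5 to Sel1l). The genes were listed by function, with earlier results of these data known.

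The integrated stress response starts when a stress kinase phosphorylates the translation factor eIF2. General translation then falls, while the transcription factor ATF4 is translated better and raises genes for amino acid uptake and synthesis, redox balance and, under lasting stress, cell death. The unfolded protein response is read out in the endoplasmic reticulum (ER) by the sensors PERK, IRE1 and ATF6, of which PERK acts through eIF2. IRE1 splices the messenger RNA of XBP1, and XBP1 and ATF6 raise chaperones and the machinery that removes misfolded proteins. In macrophages these programmes respond to amino acid supply, secretory load and lipid load.

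Bone marrow cells of C57BL/6 mice had been grown for 7 days with the growth factor M-CSF at 25 ng/ml, which turns them into macrophages. The macrophages then received culture medium of normal chondrocytes (C CM, 3 libraries) or of apoptotic chondrocytes (AC CM, 3 libraries). All 6 libraries thus share the strain, the growth factor and a chondrocyte-derived medium, and no library without such medium was used here. The labels state neither the length of exposure nor the way in which apoptosis was brought about, nor whether the replicates came from separate mice, so p-values measure the spread between these libraries, which may be technical.

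The regulatory sequences that name the arms are shown first, because the factors of each arm are known to act through them. RefSeq promoter windows of the mouse build GRCm38.p6, from 250 bases before to 50 bases after an annotated start, were matched for 34 of the 38 members in 37 windows. No window was matched for Slc7a5, Eif4ebp1, Manf and Hyou1. Both strands were searched for 4 motifs. The first was the core of the C/EBP-ATF element, TGATGNAA, which ATF4 binds together with a C/EBP partner. It was present in 6 of the 18 ATF4 arm genes with a window and in 1 of 16 ER chaperone arm genes, against 3.97% of all 32851 windows of the table. The matches are printed 5′ to 3′ along the motif with 10 bases on each side, and the capitals mark the fixed letters of the motif.
Atf3, chr1:191183426-191183453: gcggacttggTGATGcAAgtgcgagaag
Chac1, chr2:119351039-119351066: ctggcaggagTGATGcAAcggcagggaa
Trib3, chr2:152344029-152344056: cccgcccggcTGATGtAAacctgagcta
Asns, chr6:7693215-7693242: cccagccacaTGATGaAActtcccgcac
Pycr1, chr11:120643834-120643861: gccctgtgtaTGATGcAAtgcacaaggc
Vldlr, chr19:27216810-27216837: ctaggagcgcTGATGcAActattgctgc
Herpud1, chr8:94386307-94386334: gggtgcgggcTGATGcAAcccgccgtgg

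The ER stress element, CCAAT followed after 9 bases by CCACG, is bound by NF-Y together with ATF6 or XBP1. It was found in 7 of the 16 ER chaperone arm genes with a window and in 0 of 18 ATF4 arm genes, against 0.119% of all windows. Hsp90b1 held it at 2 places. The second ER stress element, ATTGG followed after 1 base by CCACG, was found in Herpud1 and Dnajb11 and in 0 of 18 ATF4 arm genes, against 0.0365% of all windows. The XBP1 element TGACGTGG had 0 matches among the members and stood in 0.676% of all windows. The capitals again mark the fixed letters.
Hspa5, chr2:34772020-34772048: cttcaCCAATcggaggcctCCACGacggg
Calr, chr8:84847070-84847098: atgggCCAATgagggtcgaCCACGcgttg
Hsp90b1 (farther from the start), chr10:86705633-86705661: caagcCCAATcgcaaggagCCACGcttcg
Hsp90b1 (nearer to the start), chr10:86705528-86705556: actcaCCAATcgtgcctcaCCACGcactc
Canx, chr11:50325795-50325823: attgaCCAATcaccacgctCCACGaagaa
Pdia6, chr12:17266486-17266514: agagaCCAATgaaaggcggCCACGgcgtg
Dnajc3, chr14:118937822-118937850: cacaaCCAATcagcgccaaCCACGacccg
Creld2, chr15:88819515-88819543: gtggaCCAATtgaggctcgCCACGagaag
Herpud1 (second element), chr8:94386368-94386396: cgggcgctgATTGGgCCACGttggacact
Dnajb11 (second element), chr16:22857843-22857871: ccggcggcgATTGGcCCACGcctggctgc

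Herpud1 was the only member with matches to both kinds of element, and it moved opposite to Hspa5, so the 250 bases before the RefSeq start of both genes are given on the gene's strand. The capitals in Herpud1 mark the C/EBP-ATF core, read here on the opposite strand, and the second ER stress element, and those in Hspa5 mark the ER stress element.
Hspa5, chr2:34771840-34772089, plus strand: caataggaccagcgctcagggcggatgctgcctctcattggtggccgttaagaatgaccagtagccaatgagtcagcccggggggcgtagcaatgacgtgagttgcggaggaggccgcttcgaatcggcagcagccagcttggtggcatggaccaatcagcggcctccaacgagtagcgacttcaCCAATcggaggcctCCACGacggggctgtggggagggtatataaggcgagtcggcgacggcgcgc
Herpud1, chr8:94386179-94386428, plus strand: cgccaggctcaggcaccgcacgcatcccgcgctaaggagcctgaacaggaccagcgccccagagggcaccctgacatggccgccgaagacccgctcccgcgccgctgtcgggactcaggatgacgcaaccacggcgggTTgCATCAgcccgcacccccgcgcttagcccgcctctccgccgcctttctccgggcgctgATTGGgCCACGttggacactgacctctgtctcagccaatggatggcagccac

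**Figure D1:**
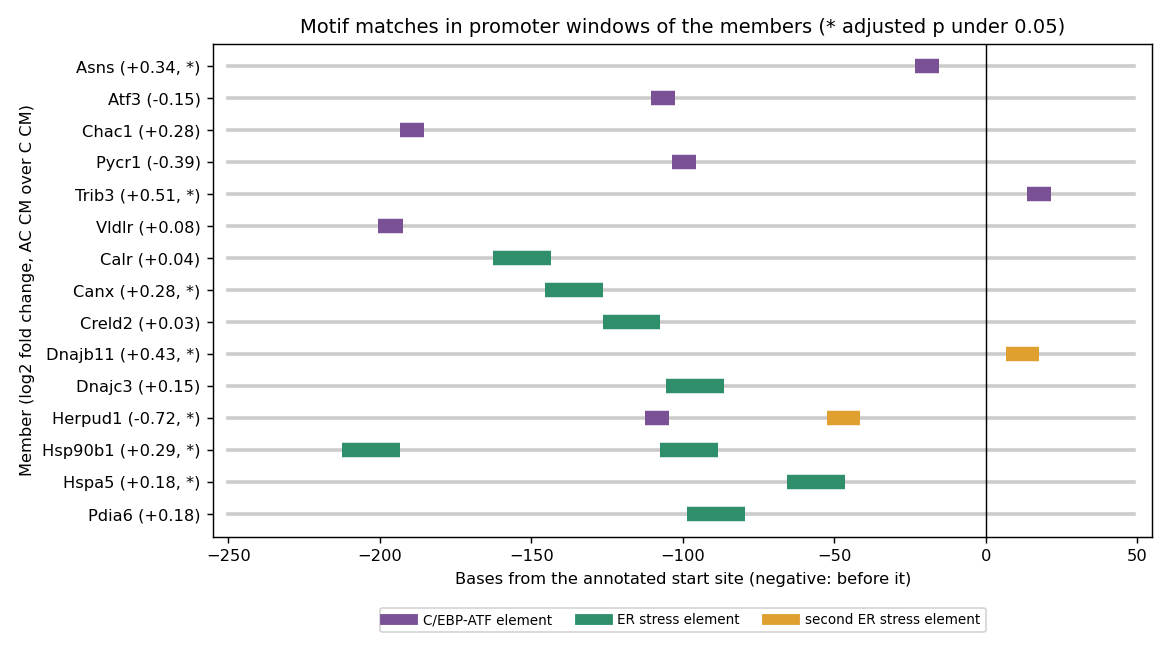
Map of the motif matches in the members' promoter windows, with the distance from the RefSeq start in bases on the horizontal axis and 1 gene per row. The C/EBP-ATF element appears in 6 ATF4 arm genes and in Herpud1, and the ER stress elements appear only in rows of the ER chaperone arm.

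The libraries held between 65630784 and 80105872 counts, and the members had between 277 and 53828 counts in a library. Levels are given as CPM, counts scaled to a common library size. Genes were compared between AC CM and C CM with edgeR's quasi-likelihood test, and a gene is said to have changed, risen or fallen where the Benjamini-Hochberg adjusted p over all 17863 tested genes was under 0.05. Of 10 macrophage markers, 0 rose and 4 fell, and their summed level was 21428 to 22779 CPM in C CM and 18988 to 19777 CPM in AC CM. Lyz2, a macrophage lysozyme, averaged 11435 CPM in C CM and 10838 CPM in AC CM, so the labelled cell type carried its markers. Csf1r, the M-CSF receptor gene, and Mertk, a receptor for apoptotic cells, fell by 0.72 and 0.40 on the log2 scale. The markers of other lineages are given because they moved with the groups: 8 of 8 tested neutrophil and precursor genes fell (829 to 962 against 170.0 to 187 CPM, S100a9 and Ngp among them), as did 7 of 8 dendritic cell genes (56.7 to 70.1 against 15.0 to 16.4 CPM, Itgax among them) and 5 of 8 fibroblast genes (4253 to 5265 against 3474 to 3561 CPM, Col1a2 among them). Of the plasma and B cell genes, which matter for ER chaperones, 6 of 8 tested fell and their sum was 167 to 196 CPM in C CM and 30.1 to 33.1 CPM in AC CM. Most of it was Ighm, and the plasma cell genes Jchain and Mzb1 averaged 0.587 and 0.346 CPM in C CM. Of 6 tested chondrocyte genes 0 changed at an adjusted p under 0.05 in edgeR's quasi-likelihood test. The chondrocyte list summed to 41.0 to 51.0 CPM in C CM and 48.1 to 51.6 CPM in AC CM, mostly Col2a1. Acan, Col9a1 and Hapln1 were not tested and were at 0 in all C CM libraries. Acan was nonetheless detected in every AC CM library, at 0.114, 0.116 and 0.151 CPM. Hapln1 reached 0, 0.0517 and 0.113 CPM there, and Col9a1 0, 0 and 0.0502 CPM. The 10 hepatocyte genes summed to 516 to 596 CPM in C CM and to 352, 944 and 1773 CPM in AC CM replicates 1, 2 and 3, but nearly all of the C CM sum was Trf, which macrophages also express, at 515 to 552 CPM. Trf was the only one of 9 tested past the threshold, and it fell. Alb stood at 30.1, 1.32 and 0.254 CPM in C CM and at 38.1, 469 and 971 CPM in AC CM. The part of these other cells' transcripts in the members' differences was not tested, except that the members were also compared with AC CM replicates 2 and 3 left out.

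In all, 26.5% of the tested genes changed, 13.3% upward and 13.3% downward. All 38 members passed the filter on low counts. Of them 16 changed (42.1%), 13 upward and 3 downward. The members were chosen with earlier results of these data known, so this share is no test of the pathways. The ATF4 arm had 7 of 20 changed (35%), 6 higher and 1 lower, and the ER chaperone arm had 9 of 18 changed (50%), 7 higher and 2 lower. With any of the AC CM libraries left out, the count in the ER chaperone arm was 5. Among tested genes, 3451 of 18632 changed without AC CM replicate 1, 3221 of 18411 without replicate 2 and 3158 of 18429 without replicate 3. With all 6 libraries 4741 of 17863 did. With replicates 2 and 3 of AC CM both left out, calls were lost in both arms and among all genes. The median log2 fold change (AC CM over C CM) was then 0.07 in the ATF4 arm and 0.14 in the ER chaperone arm.

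The median log2 fold change (AC CM over C CM) was 0.07 in the ATF4 arm, with a range from -0.60 to 0.60, and 0.14 in the ER chaperone arm, with a range from -0.72 to 0.61. Over all tested genes the median was -0.0046. The difference between the arm medians was -0.08, a description with no test. Taken library by library, the difference between the arms had a pooled SD within the groups of 0.09, larger than the size of that difference. With single libraries left out, the ATF4 arm median ranged from 0.03 to 0.11, and the difference between the arms from -0.16 to -0.04. Of the 16 changed members, 6 differed by at least 0.5 on the log2 scale. In these whole-culture libraries fewer cells of a type and less RNA per cell cannot be told apart.

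In 25 of the 38 members (65.8%) the AC CM and C CM libraries did not overlap in CPM, against 44.7% of all tested genes. The ATF4 arm had 8 genes with all AC CM libraries above all C CM libraries, 4 with all below, and 8 with overlap. In the ER chaperone arm the numbers were 11, 2 and 5. Of the 25 members without overlap, 9 did not pass the adjusted threshold.

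**Figure D2:**
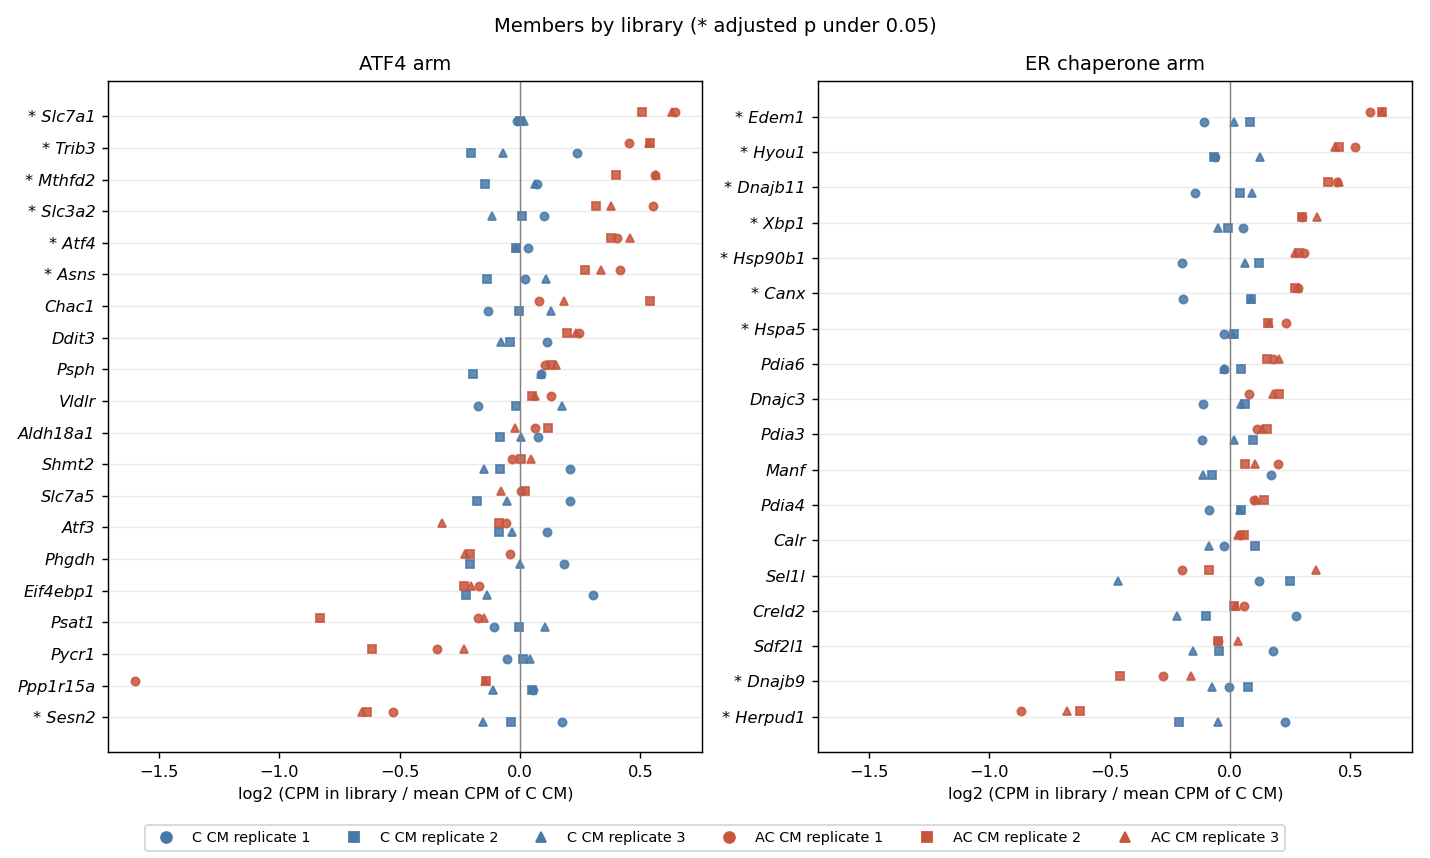
Each point is 1 library's CPM relative to the C CM mean, on a log2 axis, for the ATF4 arm (left) and the ER chaperone arm (right), with C CM in blue, AC CM in red, and replicates 1 to 3 as circle, square and triangle. Asterisks mark the members with an adjusted p under 0.05, and Ppp1r15a shows 1 AC CM library far below the other libraries.

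The plot of CPM by library shows a wider scatter of the C CM points in the ER chaperone arm. The SD relative to the mean was larger in C CM than in AC CM in 16 of its 18 genes, with a median of 7.52% against 2.30% of the mean. In the ATF4 arm it was larger in C CM in 12 of 20 genes, with medians of 8.37% and 4.97%. The share over all genes was not counted, and such scatter was not confined to the members. Adgre1 had an SD of 231 CPM in C CM and 27.8 CPM in AC CM, and C1qa 237 and 28.9 CPM. Fcgr1 went the other way, with 7.16 and 25.7 CPM.

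Among the regulators of the ATF4 arm, Atf4 itself and Trib3 rose, and Ddit3, Atf3 and Ppp1r15a did not pass the threshold. Atf4 (ENSMUSG00000042406, chr15:80255184-80257540) stood at 136, 131 and 132 CPM in the C CM libraries and at 176, 173 and 183 CPM in the AC CM libraries. Every AC CM library was above every C CM library, and the gap was wider than the range within either group. The log2 fold change was 0.41 (SE 0.06), a 1.33-fold higher level, with an edgeR adjusted p of 0.00114. Gene coordinates are those of the deposited table, which equal the GENCODE M21 annotation of GRCm38 for all 49035 identical gene identifiers, and a deposited gene region can begin elsewhere than the RefSeq start used for the promoter.

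Trib3 encodes a pseudokinase that is induced by ATF4 and CHOP and restrains them. Its level was 13.3, 9.77 and 10.7 CPM in C CM and 15.4, 16.4 and 16.3 CPM in AC CM. All AC CM libraries were above all C CM libraries, with C CM replicate 1 closest to them. The log2 fold change was 0.51 (SE 0.13, edgeR adjusted p = 0.0215), and the call was lost without C CM replicate 2 or 3 or any AC CM library (adjusted p 0.0550 to 0.0761).

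Ddit3 encodes CHOP, the factor tied to cell death under lasting stress. Its level was 52.5, 47.2 and 46.0 CPM in C CM and 57.6, 55.5 and 57.0 CPM in AC CM. The groups did not overlap, yet the log2 fold change of 0.22 (SE 0.08) had an edgeR adjusted p of 0.0604. C CM replicate 1 was the highest of its group, and without it the adjusted p was 0.00765. With DESeq2 on all 6 libraries it was 0.0454. Ddit3 overlaps Mars, a tRNA synthetase gene on the opposite strand that rose by 0.33 on the log2 scale (edgeR adjusted p = 0.0151). Only the 3′ ends overlap. Ddit3, on the plus strand, ends at base 127296288 of chromosome 10, and Mars, on the minus strand, ends at base 127296221. Strand was not stated for the counting, so reads in that stretch cannot be told apart.

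Atf3, a stress-induced repressor and activator, averaged 153 ± 11.3 CPM in C CM and 138 ± 13.5 CPM in AC CM (SD, n = 3 each), with overlapping libraries and a log2 fold change of -0.15. Ppp1r15a encodes GADD34, the subunit that directs a phosphatase to eIF2 and so ends the response. It stood at 20.7, 20.7 and 18.5 CPM in C CM and at 6.6, 18.1 and 18.1 CPM in AC CM. Its log2 fold change of -0.49 (SE 0.38) rested on AC CM replicate 1, since without that library it was -0.15, and with it as the lone AC CM library -1.60 (adjusted p = 0.00461). Ppp1r15a was singled out after its values were seen.

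The enzymes of amino acid synthesis did not move together: of 6, Asns rose and 5 did not pass. Asns, asparagine synthetase, averaged 36.5 ± 3.10 CPM in C CM and 46.3 ± 2.33 CPM in AC CM (SD, n = 3 each). Its log2 fold change was 0.34 (SE 0.09, edgeR adjusted p = 0.0192), and the call was lost without C CM replicate 2 and without AC CM replicate 1 or 3 (adjusted p 0.0602 to 0.0870). The serine synthesis genes had log2 fold changes of -0.16 (Phgdh), -0.35 (Psat1) and 0.13 (Psph), and the proline synthesis genes 0.05 (Aldh18a1) and -0.39 (Pycr1), with all 5 adjusted p above 0.05. Psat1 was lower in all AC CM libraries, but AC CM replicate 2 at 34.4 CPM stood below the other AC CM libraries at 54.2 and 55.2 CPM. Psph, at 16.1 CPM over all libraries, overlaps the opposite-strand chaperonin gene Cct6a, at 136 CPM, so a share of its reads may not be its own.

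Of the mitochondrial folate enzymes, Mthfd2 rose and Shmt2 did not pass. Mthfd2 was at 34.0, 29.3 and 33.8 CPM in C CM and at 47.7, 42.7 and 47.9 CPM in AC CM, with a clear gap between the groups. The log2 fold change was 0.51 (SE 0.09, edgeR adjusted p = 0.00344). Shmt2 averaged 53.3 ± 7.22 and 53.6 ± 1.52 CPM (SD, n = 3 each), and its log2 fold change of 0.01 had a sign that turned with the scaling and with the libraries used.

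Of the amino acid transporters, Slc7a1 and Slc3a2 rose and Slc7a5 did not pass. Slc7a1, the carrier of arginine and lysine (ENSMUSG00000041313, chr5:148327410-148399904), had the largest rise of the ATF4 arm. It was at 36.9, 37.2 and 37.7 CPM in C CM and at 58.3, 53.0 and 57.8 CPM in AC CM. The C CM libraries were nearly equal and all AC CM libraries lay well above them, with a log2 fold change of 0.60 (SE 0.07, 1.51-fold, edgeR adjusted p = 0.000464). Slc3a2, the heavy chain shared by several transporters, averaged 235 ± 17.4 CPM in C CM and 314 ± 27.0 CPM in AC CM (SD, n = 3 each), a log2 fold change of 0.42 with an adjusted p of 0.00613. Slc7a5, the leucine carrier that pairs with Slc3a2, averaged 45.7 ± 6.35 and 45.1 ± 1.66 CPM, and the sign of its log2 fold change of -0.02 turned with single libraries.

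Sesn2 was the only ATF4 arm gene that fell. It encodes sestrin 2, a leucine sensor that restrains mTORC1 and is induced by ATF4 and by p53 (ENSMUSG00000028893, chr4:132492032-132510501). Sesn2 stood at 71.1, 61.4 and 56.6 CPM in C CM and at 43.8, 40.6 and 40.0 CPM in AC CM. All AC CM libraries lay below all C CM libraries, and the level was 1.52-fold lower (log2 fold change -0.60, SE 0.10, edgeR adjusted p = 0.0019). Sesn2 thus moved opposite to Atf4 in the same libraries. Chac1, which degrades glutathione, Vldlr, a lipoprotein receptor, and Eif4ebp1, a translation repressor, had log2 fold changes of 0.28, 0.08 and -0.20, and none of them passed.

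**Figure D3:**
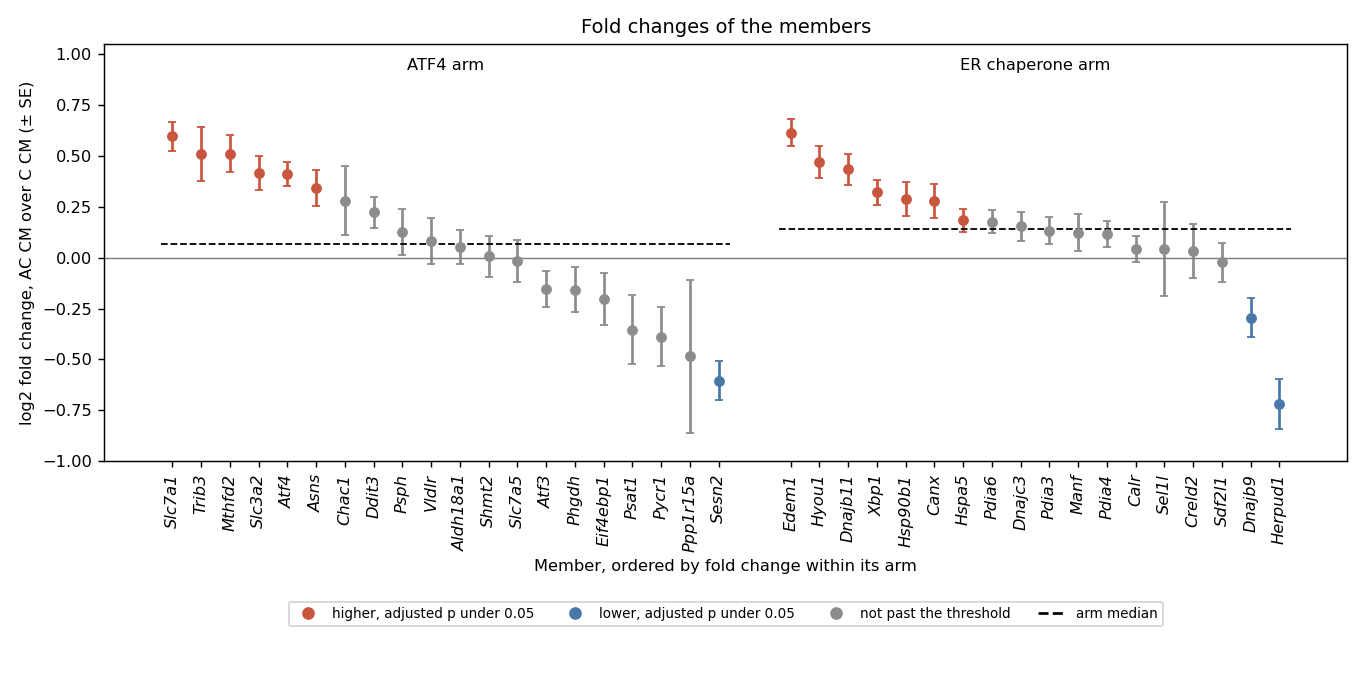
Log2 fold change of each member (AC CM over C CM, bars are the standard error, 3 libraries per group), ordered within its arm, with red for higher, blue for lower and grey for members not past an adjusted p of 0.05, and a dashed line at the arm median. Slc7a1 and Edem1 lead the arms at 0.60 and 0.61, and Sesn2 and Herpud1 close them at -0.60 and -0.72.

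The plot of fold changes shows that the ATF4 arm spread to both sides of 0, with 12 genes above and 8 below. In the ER chaperone arm 15 of the 18 genes lay above 0. Over all tested genes 8854 lay above 0 and 9009 below. Most of the ER chaperone arm differences were under 0.5 on the log2 scale.

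All 3 ER chaperones of the HSP70 and HSP90 families rose. Hspa5 encodes BiP, the main HSP70 of the ER and a common readout of the unfolded protein response (ENSMUSG00000026864, chr2:34771970-34777547). It was at 315, 324 and 322 CPM in C CM and at 377, 358 and 359 CPM in AC CM, so the groups did not overlap. The rise was small, with a log2 fold change of 0.18 (SE 0.06, 1.14-fold, edgeR adjusted p = 0.0403). It passed only narrowly: the call was lost without C CM replicate 2 or 3 or any AC CM library (adjusted p 0.0730 to 0.175), with upper-quartile scaling (0.0604) and with no filter on low counts (0.0575).

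Hyou1, an HSP70 relative that exchanges the nucleotide of BiP (ENSMUSG00000032115, chr9:44379490-44392369), stood at 53.4, 53.2 and 60.8 CPM in C CM and at 80.0, 76.4 and 75.4 CPM in AC CM. The gap between the groups was wider than the range within either group, and the log2 fold change was 0.47 (SE 0.08, edgeR adjusted p = 0.00237). Hsp90b1, the ER HSP90 also called GRP94, averaged 476 ± 53.9 CPM in C CM and 581 ± 7.81 CPM in AC CM (SD, n = 3 each). Its log2 fold change of 0.29 had an adjusted p of 0.0329, and the call was lost without C CM replicate 3 or any AC CM library (adjusted p 0.0507 to 0.104).

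Of the 6 partners of BiP and other resident ER proteins, Dnajb11 rose, Dnajb9 fell and 4 did not pass. Dnajb11, the co-chaperone ERdj3 that hands clients to BiP, averaged 72.0 ± 6.10 CPM in C CM and 97.4 ± 1.66 CPM in AC CM (SD, n = 3 each). The log2 fold change was 0.43 (SE 0.08, edgeR adjusted p = 0.00332). Dnajb9 encodes ERdj4, which holds IRE1 inactive with BiP, and it averaged 40.6 ± 2.11 and 33.1 ± 3.38 CPM. Its log2 fold change of -0.29 had an adjusted p of 0.0494, and the call was lost when any of the 6 libraries was left out (adjusted p 0.0512 to 0.172), with RLE scaling (0.0501) and with no filter on low counts (0.0636). Dnajc3, Sdf2l1, Manf and Creld2 had log2 fold changes of 0.15, -0.02, 0.12 and 0.03. Manf passed only without C CM replicate 1 (adjusted p = 0.0339), and its gene region overlaps those of Rbm15b and Vprbp.

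Among the disulfide isomerases, which form and reshuffle disulfide bonds, 0 of 3 passed, although all AC CM libraries were above all C CM libraries for Pdia3, Pdia4 and Pdia6. Their log2 fold changes were 0.13, 0.11 and 0.18. Pdia6 missed the threshold narrowly (edgeR adjusted p = 0.0512) and passed with DESeq2 (0.0347), with limma-voom (0.0487) and without C CM replicate 1 (0.0197). Of the lectin chaperones, which hold glycoproteins during folding, Canx rose and Calr did not pass. Canx averaged 406 ± 44.2 CPM in C CM and 492 ± 2.89 CPM in AC CM (SD, n = 3 each), a log2 fold change of 0.28 with an adjusted p of 0.0341 that was lost without any AC CM library (0.0926 to 0.1003). Calr had a log2 fold change of 0.04 (SE 0.06).

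Xbp1, the transcription factor whose messenger RNA is spliced by IRE1, rose (ENSMUSG00000020484, chr11:5520659-5525893). It stood at 101, 96.4 and 93.7 CPM in C CM and at 119, 119 and 125 CPM in AC CM. The groups did not overlap, and the log2 fold change was 0.32 (SE 0.06, edgeR adjusted p = 0.0054). Counts per gene do not tell the spliced from the unspliced form.

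The genes of ER-associated degradation, which sends misfolded proteins to the proteasome, went in opposite directions. Edem1, a lectin that routes misfolded glycoproteins to degradation (ENSMUSG00000030104, chr6:108828641-108859356), had the smallest p of all members. It was at 245, 279 and 267 CPM in C CM and at 394, 408 and 408 CPM in AC CM. The groups were widely separated, with a log2 fold change of 0.61 (SE 0.07, 1.53-fold, edgeR adjusted p = 0.000249).

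Herpud1 encodes HERP, a membrane protein of the degradation complex (ENSMUSG00000031770, chr8:94386438-94395377). It stood at 47.9, 35.3 and 39.5 CPM in C CM and at 22.4, 26.5 and 25.6 CPM in AC CM. All AC CM libraries were lower than all C CM libraries, by 1.65-fold (log2 fold change -0.72, SE 0.12, edgeR adjusted p = 0.00296). Sel1l, the adaptor of the ligase HRD1, varied within both groups, from 127 to 209 CPM in C CM and from 153 to 225 CPM in AC CM, and its log2 fold change of 0.04 (SE 0.23) turned sign with single libraries. Sel1l and Psat1 were singled out after their values were seen.

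The calls of Slc7a1, Slc3a2, Edem1 and Herpud1 were past the threshold with the same sign in all 16 other settings tried. Atf4, Sesn2, Mthfd2, Xbp1, Dnajb11 and Hyou1 were lost only with AC CM replicates 2 and 3 left out, a fit in which the lone AC CM library is assumed to vary like the C CM libraries. In that fit all 16 changed members kept their sign, and 4 passed. Among the authors' deposited results 16 members had an adjusted p under 0.05, and 15 of these are among the 16 called here. In the authors' deposited table Pdia6 passed (adjusted p = 0.0479) and Dnajb9 did not (0.0533).

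Members with a motif match were found among those that changed and among those that did not pass. Of the 7 genes with an ER stress element, Hspa5, Hsp90b1 and Canx rose, and Calr, Pdia6, Dnajc3 and Creld2 did not pass. Of the genes with the second element, Dnajb11 rose and Herpud1 fell. Of the 6 ATF4 arm genes with a C/EBP-ATF core, Trib3 and Asns rose, and Atf3, Chac1, Pycr1 and Vldlr did not pass. A match is a run of letters in the window, and binding was not measured.

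Levels per kilobase of exon allow genes to be set side by side. In C CM the ER chaperones led, with Calr at 229, Pdia3 at 194, Hsp90b1 at 118, Canx at 86.5 and Hspa5 at 75.8 CPM per kb. In AC CM they stood at 236, 213, 144, 105 and 86.1 CPM per kb, in the same order except that Slc3a2 (66.7 in C CM, 89.1 in AC CM) passed Hspa5. Atf4 went from 56.4 to 75.1 CPM per kb. Pycr1 and Vldlr were lowest, at 1.91 and 1.90 CPM per kb in C CM. Exon lengths came from GENCODE M21. An identical versioned identifier, with the same coordinates, was found there for 33 of the 38 members, and the others were matched without the version number.

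**Figure D4:**
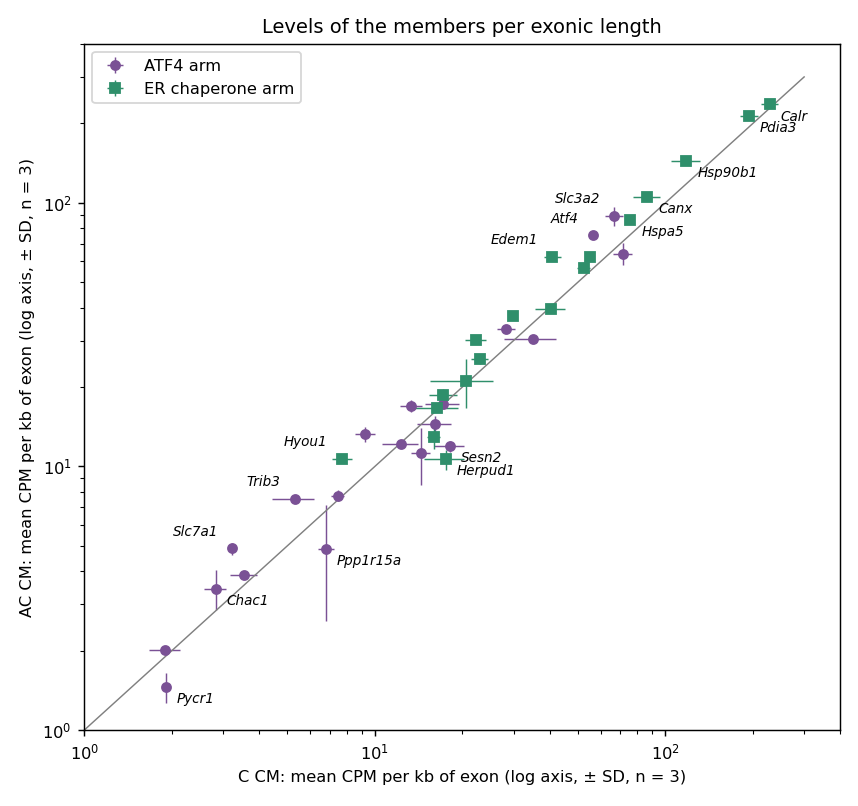
Mean CPM per kb of exon in C CM (horizontal) and AC CM (vertical), both on log axes, with bars for the SD over 3 libraries and the line of equal level, for the ATF4 arm (purple circles) and the ER chaperone arm (green squares). Calr and Pdia3 sit at the top right near the line, while Edem1, Atf4 and Slc7a1 lie above it and Herpud1 and Sesn2 below it.

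The other genes of the pathways, from lists that were written with earlier results of these data known, are given by counts. Of 22 stress sensors and translation factors, 8 rose, 3 fell and 11 did not pass, with a median log2 fold change of 0.11. The changed share was 50%, against 26.5% of all tested genes. All 3 eIF2 subunits rose, led by Eif2s3x (0.71, adjusted p = 0.000524) and Eif2s1 (0.55). Of the 5 subunit genes of eIF2B, which acts on eIF2, 1 rose and 4 did not pass, with log2 fold changes from -0.44 to 0.61. The ER sensor Atf6 rose (0.46, adjusted p = 0.00146), and so did Mbtps2 (0.37), the protease that frees ATF6 from the membrane. The ER sensor genes Eif2ak3, which encodes PERK, and Ern1, which encodes IRE1, fell by 0.47 and 0.31 on the log2 scale. Of the 4 eIF2 kinase genes, Eif2ak3 and the heme-regulated kinase gene Eif2ak1 (-0.22) fell, Eif2ak2, which encodes the RNA-activated kinase PKR, rose (0.32, adjusted p = 0.0312), and Eif2ak4, which encodes the amino acid sensor GCN2, did not pass (-0.11). With each AC CM library left out, 6 or 7 of these 22 genes changed. Among all tested genes 3158 to 3451 changed in those fits, against 4741 with every library used. With AC CM replicates 2 and 3 left out, further calls were lost in this list and among all genes.

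Of 41 other ATF4 targets 40 were tested, 13 rose, 7 fell and 20 did not pass, with a median of 0.07. Of those tested, 50% changed, against 26.5% of all tested genes. Slc7a11, the cystine carrier that pairs with Slc3a2, had the largest called rise, from 4.41 ± 0.56 to 12.4 ± 1.28 CPM (SD, n = 3 each, log2 fold change 1.49, edgeR adjusted p = 0.000158). The alanyl-tRNA synthetase gene Aars (0.52), Nupr1 (0.53) and Mthfd1l (0.51) also rose. Of 12 tRNA synthetase genes, which charge amino acids to tRNA, 9 rose and 0 fell, with log2 fold changes from -0.17 to 0.52. Over all tested genes 13.3% rose. The synthetases held 9 of the 13 rises of this list, and all 7 falls lay outside them. In the other direction, the stress cytokine Gdf15 fell from 12.5 ± 2.25 to 4.69 ± 0.63 CPM (log2 fold change -1.41, adjusted p = 0.00044), and so did Bbc3 (-1.16), Pck2 (-0.73) and Map1lc3b (-0.55). Without AC CM replicate 1 or 2 the changed genes of this list numbered 13, while 3451 and 3221 of all tested genes changed, against 4741 with every library used. With AC CM replicates 2 and 3 left out, further calls were lost in this list and among all genes.

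Of 40 other genes of ER folding and protein entry, 7 rose, 1 fell and 32 did not pass, with a median of 0.04. The changed share of 20% was below the 26.5% of all tested genes. Spcs3 (0.61), Ero1l (0.50), Sec23b (0.46) and Ssr1 (0.27) had the smallest p among those that rose, and Wfs1 fell (-0.45). Of 23 other genes of ER-associated degradation, 4 rose (Derl2 0.65, Edem3 0.42, Ufd1 0.31, Ube2j1 0.30), 2 fell (Edem2 -0.56, Os9 -0.26) and 17 did not pass. The changed share of 26.1% was close to the 26.5% of all tested genes. Without single AC CM libraries the changed genes of these lists numbered 4 to 5 and 2 to 4. Among all tested genes 3158 to 3451 changed in those fits, against 4741 with every library used. With AC CM replicates 2 and 3 left out, further calls were lost in both lists and among all genes.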

How the data were processed

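RNA of 6 macrophage samples had been made into mRNA libraries and sequenced on an Illumina instrument, per the labels' protocols. Whole-number counts per gene, as deposited, differ in their totals per library and were used for all tests. The normalized signal columns, which the authors deposited as counts divided by a constant per library, were not used. The log2 fold changes and p-values that the authors deposited are their own comparison and were only read beside these results. The submitters' processing notes name R 3.4.3, DESeq2 1.18.1, HISAT2 2.1.0 and fastp 0.17.1 without saying what each did. The labels do not name the counter, its use of strand, the genome build or the annotation.

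In edgeR 4.0.16 (R 4.3.3), counts were filtered with filterByExpr and scaled by TMM, and a robust quasi-likelihood model with a single group term was fitted to all genes, with Benjamini-Hochberg adjustment. CPM use the TMM-scaled library sizes. The procedure was also run on simulated data with 200 changed genes and the same spread for every gene. That run does not cover counts in multiples of 4 or transcripts of other cells. Members and gene lists were chosen with earlier results of these data known. Low counts favour multiples of 4, so counts may not be independent fragments. With counts divided by 4, all 16 changed members were called again. Groups were taken from the sample titles. Values in every library were given for Atf4, Ddit3, Hspa5 and Xbp1, for changed members with a log2 fold change of at least 0.5 in size, and for the 3 members of each arm with the smallest p. From each pathway list up to 4 changed genes per direction with the smallest p were named, and from each marker list the most counted gene with up to 2 changed genes. Alb, Jchain, Mzb1, Matn1 and chondrocyte genes at 0 were named after their values were seen. Exon lengths came from GENCODE M21 and promoter windows from RefSeq. Alternatives were DESeq2 1.42.0, limma-voom (limma 3.58.1), RLE and upper-quartile scaling, no filter, a filter of 1 CPM in 3 libraries, the 20 most counted genes left out, counts divided by 4, the replicate number as a block, AC CM replicates 2 and 3 left out, and each library left out. Plots were drawn with matplotlib 3.10.9, and tables were built in Python 3.11.15 with numpy 2.4.6 and pandas 2.3.3.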

Additional observations from a re-analysis of the deposited data

How the results depend on the processing

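Each result was recomputed under 16 other settings. Scaling and tool moved the median of all genes by at most 0.03 on the log2 scale. With AC CM replicates 2 and 3 left out, 1274 genes changed (510 higher, 764 lower), 3 of the ATF4 arm (2 higher) and 2 of the ER chaperone arm (1 higher, 1 lower). In that setting 1 of the stress sensors and translation factors changed, 4 of the other ATF4 targets, 2 of the other ER folding genes and 0 of the other degradation genes. The ER chaperone arm had 1 lower gene, in place of 2, with RLE scaling, with no filter on low counts and with the replicate block.

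With each library left out in turn, 3158 to 5023 genes changed (1511 to 2667 higher, 1647 to 2356 lower), 5 to 8 of the ATF4 arm (4 to 7 higher) and 5 to 10 of the ER chaperone arm (4 to 9 higher, 1 lower each time). The pathway lists then had 6 to 11 sensors and translation factors, 13 to 22 other ATF4 targets, 4 to 10 other ER folding genes and 2 to 9 other degradation genes changed, and the medians were 0.14 to 0.18 in the ER chaperone arm and 0.03 to 0.11 in the ATF4 arm, with a difference of -0.16 to -0.04. The sign turned only in members far from the threshold. Shmt2 was at -0.017 with upper-quartile scaling, -0.0024 with a filter of 1 CPM, -0.039 without AC CM replicates 2 and 3, and -0.064 to 0.13 with single libraries left out. Without AC CM replicates 2 and 3, Slc7a5 was at 0.00028 and Sel1l at -0.20, and with single libraries left out they ranged from -0.10 to 0.10 and from -0.14 to 0.18. Sdf2l1 ranged from -0.10 to 0.079 and Creld2 from -0.066 to 0.20. The cause was not tested.

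Deviations from the group means of same-numbered libraries correlated at -0.12, -0.03 and -0.01. This cannot settle whether the numbers pair the libraries, since the labels do not say where the replicates came from. With the replicate block 4397 genes changed, and 14 of the 16 members kept their call. Hspa5 (adjusted p = 0.0780) and Dnajb9 (0.0799) did not pass there. With 3 libraries per group the smallest called difference was 0.34 in the ATF4 arm and 0.18 in the ER chaperone arm. These are not detection limits, since Ppp1r15a (-0.49), Pycr1 (-0.39) and Psat1 (-0.35) of the ATF4 arm differed by more and did not pass.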
